A study of Mus with 15 samples.

Results

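Immediate early genes are switched on within minutes of a signal reaching a neuron, from promoters that are already loaded with the required factors, and before any new protein is made. Most encode transcription factors that carry the signal on to later genes, and their induction in the brain is a widely used sign of recent neuronal activity, also after psychostimulants. Monoubiquitination of histone H2A (H2Aub) is laid down mainly by the Polycomb repressive complex PRC1, is removed by deubiquitinases, and is best known as a mark of repressed or poised genes, many of them genes of developmental and signal-regulated transcription factors. The 10 immediate early genes followed here by name, called the members, were the AP-1 genes Fos, Fosb and Junb, the zinc finger genes Egr1, Egr2 and Egr3, Npas4, the nuclear receptor genes Nr4a1 and Nr4a2, and the effector gene Arc. They are 10 of 21883 protein-coding genes of the gene table used. For each gene, the H2Aub peaks that reached into its body or the 5 kb on either side (the window) were taken from every list of peaks, and the peaks were described by their number, by the bases of the window under them (covered bp) and by the width of the widest peak.

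The lists came from ChIPmentation of H2Aub in thalami of mice aged 2 to 4 months, with 3 to 4 thalami pooled in each sample according to the labels, while the methods of the study allow a lower number. Controls were titled Maged1 WT and carried the genotype label Maged1 Loxp (WT), and Maged1 cKO mice (cKO) had lost Maged1 through a Cre recombinase under the Vglut2 promoter. All mice received saline for 3 days and for the next 5 days either cocaine (20 mg/kg, intraperitoneal) or again saline, with 3 libraries in every group except cKO cocaine, which had 2. The comparison of cocaine with saline in each genotype asked where the mark lies after repeated cocaine and whether this depends on Maged1. The deletion was limited to cells in which the Vglut2 promoter had been active, and the other cells of the thalamus kept the gene. Each library is therefore a mixture of cells and of animals, and more cells that carry the mark at a gene cannot be told apart from more of the mark in each cell. Maged1 itself had no H2Aub peak in any of the 11 lists, and a list of peaks holds nothing that could check its deletion or the tissue. The methods describe hemizygous males on a C57Bl6J background, and sex entered no comparison.

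The lists differed widely in length. They held between 7271 and 80713 peaks over 4.24 to 27.6 Mb, and the number of reads behind each of them is unknown. The study reports only a minimum depth that all samples exceeded. The cKO cocaine and cKO saline libraries numbered 1 stood apart, with 54653 and 80713 peaks, fold enrichments of up to 31.2 and 52.6 and median peak widths of 206 and 198 bp. In the other 9 lists the number of peaks ran from 7271 to 26055, the highest fold enrichment from 5.98 to 12.2 and the median width from 242 to 429 bp. Results that rest on these 2 libraries are given also without them.

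Most of the 10 members had H2Aub peaks in the thalamus whatever the treatment. A peak was present in 101 of the 110 pairs of a member and a library, and in 81 of 90 without the cKO libraries numbered 1. In all 11 libraries a peak was found at 6 of 10 members (Fos, Fosb, Junb, Egr2, Egr3 and Nr4a2), against 6.76% of all protein-coding genes. In at least 9 of the 11 libraries this was so for 9 of 10 members, against 12.8% of protein-coding genes, and among the 9676 coding genes whose windows were of the same range of lengths these shares were 6.99 and 12.1%. The exception was Npas4, with a peak in 6 libraries. Arc and Nr4a1 had a peak in 10 libraries and Egr1 in 9.

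The share of the window under peaks, taken over all libraries and treatments, separated the members into 3 levels. Over the 11 libraries the share was 38.3% ± 9.51 (SD, n = 11) for Nr4a2, 30.5% ± 5.50 for Egr3 and 28.3% ± 6.94 for Egr2. It was 9.34% ± 6.61 for Junb, 9.14% ± 5.31 for Fos, 7.76% ± 6.16 for Arc, 7.49% ± 6.33 for Fosb and 7.14% ± 4.67 for Egr1. Nr4a1 with 2.22% ± 1.87 and Npas4 with 1.71% ± 2.41 came last. Between neighbours in this order only 2 steps were larger than their spread over libraries. Egr2 lay above Junb in 11 of 11 libraries, by 18.9 ± 5.14 percentage points (SD of the within-library difference), and Egr1 above Nr4a1 in 9 of 11, by 4.92 ± 4.06 points. Without the cKO libraries numbered 1 the shares were 38.1% for Nr4a2, 29.0% for Egr3 and 27.3% for Egr2, from 5.87% at Fosb to 7.79% at Fos for the 5 members that follow, and 1.70% for Nr4a1 and 0.785% for Npas4. In all 11 libraries, all other neighbours differed by less than 1 SD of their difference, among them Nr4a2 and Egr3 (7.80 ± 7.92 points). The windows of Nr4a1 and Npas4 were the longest of the members, at 30.9 and 29.1 kb. In covered bp the lowest level stood out less, with 686 ± 577 bp at Nr4a1 and 498 ± 701 bp at Npas4 against 982 ± 642 bp at Egr1 (SD, n = 11). Within the WT saline group Arc, at 1.47%, lay below Nr4a1, at 1.80%. Against the genome, Nr4a2 had a larger covered share than 99.1% of protein-coding genes, and Npas4, the lowest member, a larger one than 87.4%.

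The AP-1 genes encode proteins that bind DNA as Fos and Jun family pairs. Fos (gene 14281, chr12:85473890-85477274 in mm10) was marked inside its short body. A stretch of 170 bp, chr12:85474894-85475063, was under a peak in at least 9 libraries, and the peak of the cKO saline 3 library lay beside it. In the WT cocaine libraries 1, 2 and 3 the covered length at Fos was 1843, 1128 and 1158 bp, and in the WT saline libraries 1036, 170 and 1238 bp. The 2 groups overlapped, and the difference of 562 ± 402 bp (SE) gave p = 0.3 in the exact permutation test. It was 239 bp without the second WT saline library and 328 bp without the first WT cocaine library, 51.3 bp with peaks of q at most 0.01, and -223 bp with the best 7271 peaks of each list, the number in the shortest list. The widest peak at Fos did not overlap between the groups, at 1128 to 1706 bp after cocaine and 170 to 823 bp after saline. In cKO, Fos had 1654 and 1929 bp after cocaine and 2417, 749 and 136 bp after saline.

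Fosb (gene 14282, chr7:19302696-19310118), whose truncated product is known to accumulate in the striatum during repeated cocaine, had peaks over the lower-coordinate part of its body in every library. WT cocaine libraries covered 3461, 944 and 1420 bp and WT saline libraries 497, 745 and 526 bp, so that each cocaine library lay above each saline library. The mean difference was 1352 ± 776 bp (SE, p = 0.1, exact permutation test), and without the first WT cocaine library it was 593 bp. The WT groups overlapped per Mb of all peaks of the library (53.0 bp per Mb, p = 0.2, exact permutation test), with q at most 0.01 (1106 bp, p = 0.4, exact permutation test) and with the best 7271 peaks of each list (1306 bp, p = 0.4, exact permutation test), where the second WT cocaine library had 0 bp. In cKO the means ran the other way, with 1996 and 334 bp after cocaine and 3147, 866 and 412 bp after saline, and the groups overlapped. With 1 library left out at a time, the cKO difference at Fosb ran from -1141 to 526 bp, so its direction was not stable. The 2 cKO libraries numbered 1 had a peak near the lower-coordinate end of Fosb with fold enrichments of 8.92 and 7.91, where the other libraries had no fold above 4.37 anywhere in the window.

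Junb (gene 16477, chr8:84976909-84978748), a partner of the Fos proteins, had peaks in its body in every library, from narrow ones to ones that ran over most of it, and 115 bases just past its middle were under a peak in all 11 libraries. In WT its covered length was 1363, 1778 and 1463 bp after cocaine and 1466, 428 and 164 bp after saline (p = 0.3, exact permutation test), so that 1 saline library lay within the cocaine range. In cKO it was 2155 and 565 bp after cocaine and 2208, 464 and 115 bp after saline, with the high value of each group in its library numbered 1. The window of Junb also holds part of Prdx2.

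The Egr genes encode zinc finger factors that bind GC-rich sites in activity-regulated promoters. Egr2 (gene 13654, chr10:67534469-67542188) had the largest difference in covered bp between the WT groups relative to its SE among the members. The WT cocaine libraries covered 6292, 6596 and 5741 bp of its window, a mean of 6210 ± 433 bp (SD, n = 3), and the WT saline libraries 3963, 3680 and 3713 bp, a mean of 3785 ± 155 bp (SD, n = 3). The gap between the groups was wider than the range within either of them. The difference of 2424 ± 266 bp (SE) gave p = 0.1, the smallest p that the exact permutation test of 3 against 3 libraries can give, and an adjusted p of 0.633 over the 8198 protein-coding genes with a peak in any WT library. Per Mb of all peaks of the library the difference at Egr2 turned to -34.5 bp per Mb (p = 0.8, exact permutation test) and the groups overlapped. With the best 7271 peaks of each list, and also with q at most 0.01, it was 2688 bp (p = 0.1, exact permutation test) and the groups did not overlap. The mark at Egr2 also had another outline after cocaine. All 3 WT cocaine libraries held 2 broad peaks, of which the wider measured 3233 to 3618 bp, while the WT saline libraries held 3 or 4 narrower ones, with the widest at 1485 to 2223 bp. The stretch between the pieces nearest to the lower-coordinate end, which no peak of the 3 WT saline libraries reached, was under the first broad peak in each WT cocaine library. Stretches of 1371, 404 and 1912 bp (chr10:67534386-67535756, chr10:67536619-67537022 and chr10:67538258-67540169) were under a peak in at least 9 of the 11 libraries. The window of Egr2 also holds part of the coding gene Ado, on the side of its higher-coordinate flank, where no library had a peak.

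In cKO the covered length at Egr2 was 5830 and 5970 bp after cocaine and 5838, 4255 and 3267 bp after saline. The cKO saline library numbered 1 thus reached the level of the cocaine libraries, and the other 2 lay below it (difference 1447 ± 752 bp, SE, p = 0.3, exact permutation test). Without the libraries numbered 1 the difference was 2209 bp, with 1 cocaine library left and therefore no test. Both libraries numbered 1 held a further peak at the outer edge of the lower-coordinate flank, with fold enrichments of 8.55 and 9.29, against at most 6.16 at Egr2 in the other lists.

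**Figure D1:**
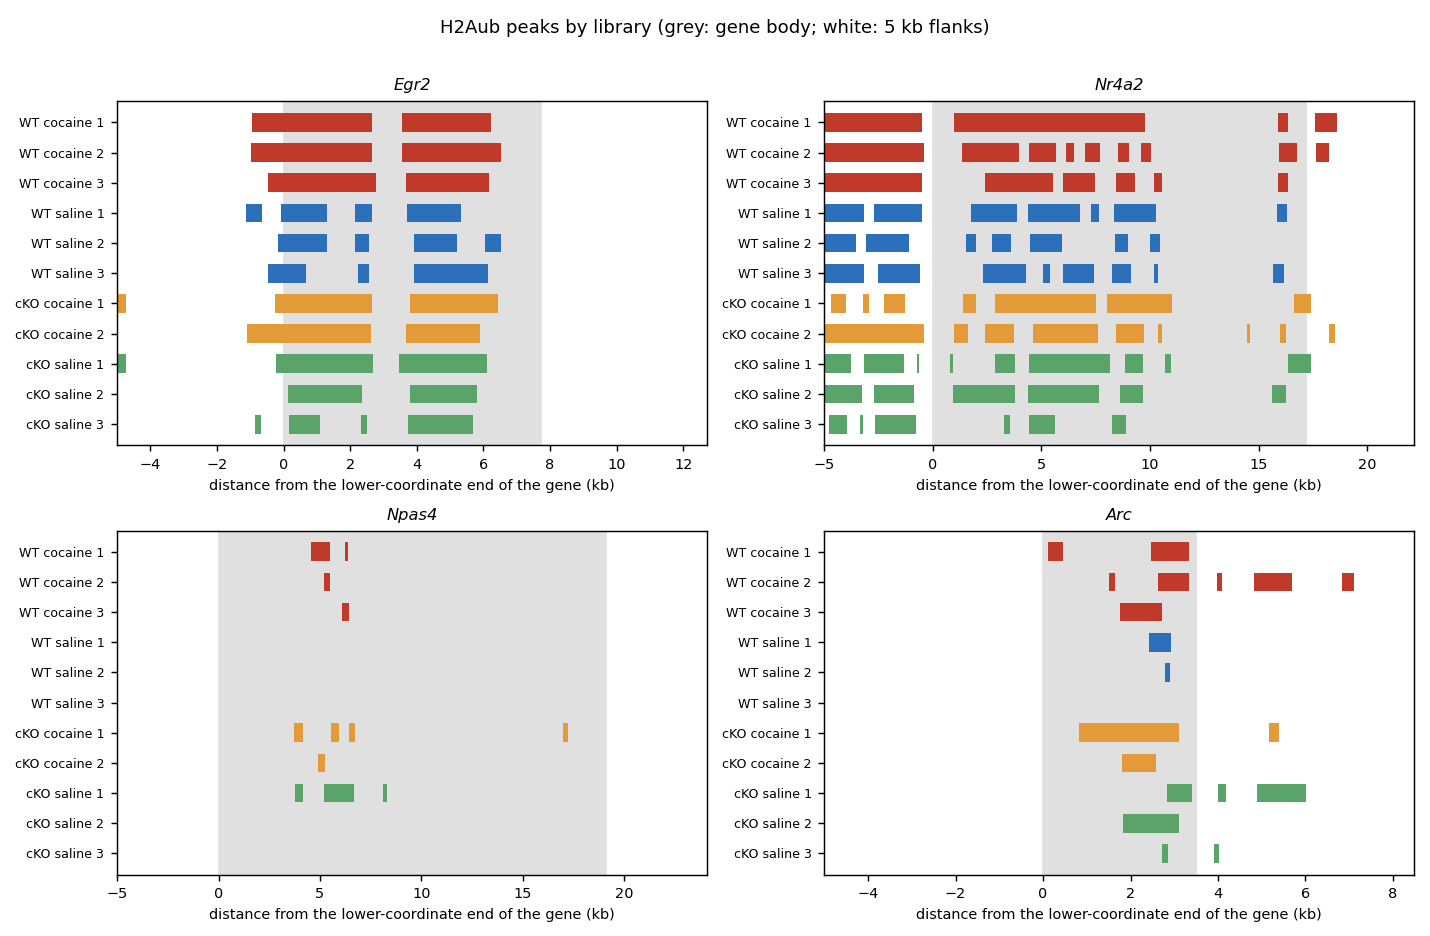
Positions of H2Aub peaks at Egr2, Nr4a2, Npas4 and Arc in each of the 11 libraries. The horizontal axis is the distance in kb from the lower-coordinate end of the gene, bars are peaks coloured by group, grey is the gene body and white the 5 kb flanks. At Egr2 each WT cocaine library has 2 broad peaks where the WT saline libraries have 3 or 4, and at Npas4 the 3 WT saline libraries have no peak.

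Egr3 (gene 13655, chr14:70077317-70082613) had about the covered share of Egr2. A block of 3204 bp in its body, chr14:70077514-70080717, was under a peak in at least 9 libraries. WT cocaine libraries covered 4970, 5289 and 3680 bp and WT saline libraries 5135, 3350 and 4351 bp, which overlapped (p = 0.6, exact permutation test). Per Mb of all peaks of the library the WT groups separated in the other direction, with every cocaine library below every saline library (-196 bp per Mb, p = 0.1, exact permutation test, adjusted p = 0.997). The cKO values were 5544 and 5243 bp after cocaine and 5831, 4051 and 3810 bp after saline, which overlapped too.

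Egr1 (gene 13653, chromosome 18), widely used as a marker of neuronal activity, had no base under a peak in more than 7 libraries. In WT its window held 1446, 1962 and 1266 covered bp after cocaine and 1469, 867 and 376 bp after saline (p = 0.3, exact permutation test). In cKO both cocaine libraries had a peak (1104 and 807 bp), as did 1 of the 3 saline libraries, the one numbered 1, with 1507 bp. The groups overlapped in both genotypes.

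Npas4 (gene 225872, chr19:4984353-5003439), a factor that responds to calcium entry and is largely restricted to neurons, was the single member whose presence of a peak differed fully between the WT groups. All 3 WT cocaine libraries had a peak in its body (1106, 299 and 336 covered bp) and none of the 3 WT saline libraries had one. This pattern was found at 1.73% of the 8198 genes. The peaks were weak, with fold enrichments of 2.86 to 3.64 and q of 0.0204 to 0.0685, and they did not share 1 position, since the peak of the second library ended 5512 bp from the lower-coordinate end of the gene and that of the third began at 6100 bp. Among cKO libraries both after cocaine (1343 and 315 bp) and the saline library numbered 1 (2076 bp) had peaks, while the other 2 saline libraries had none, and no member had a peak in all cocaine and no saline libraries of cKO (0.474% of genes). With q at most 0.05 the third WT cocaine library lost its Npas4 peak, and with only the 7271 best peaks of each list no library had one. The absence of a peak does not show the absence of the mark, because the number of reads behind each list is unknown. The WT saline lists covered 11.1, 5.55 and 8.41 Mb of the genome and the WT cocaine lists 17.2, 15.0 and 10.4 Mb.

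Nr4a1 and Nr4a2 encode orphan nuclear receptors, and Nr4a2 is also a lineage factor of dopamine neurons. Nr4a2 (gene 18227, chr2:57106830-57124003) had the most covered bases of the members, under 4 to 9 separate peaks in a library, which ran over its body and on across the lower-coordinate flank. The WT cocaine libraries covered 14701, 11977 and 10770 bp and the WT saline libraries 11286, 7224 and 9082 bp, so that the groups overlapped by 1 saline library (difference 3285 ± 1652 bp, SE, p = 0.2, exact permutation test, and 2176 bp without the first WT cocaine library). Scaled to the Mb of all peaks of the library, the difference turned to -236 bp per Mb (p = 0.2, exact permutation test). The widest peak did not overlap, at 8756, 5268 and 4696 bp after cocaine and 2384, 1995 and 2817 bp after saline. The lower-coordinate flank lay under 1 unbroken peak of 4696 to 5268 bp in each WT cocaine library and under 2 peaks in each WT saline library, and 4503, 4591 and 4489 bp of it were covered after cocaine against 4067, 3441 and 3790 bp after saline.

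In cKO the widest peak at Nr4a2 was 4642 and 5575 bp after cocaine and 3725, 3274 and 1864 bp after saline, again without overlap, while the covered length did overlap (11066 and 11685 bp against 10183, 11443 and 4938 bp). The flank was under a single peak only in the second cKO cocaine library. The 2 libraries numbered 1 had their strongest member peaks in this flank, with fold enrichments of 15.3 and 15.2 against 4.05 to 6.16 as the highest member value in each of the other 9 lists. A short predicted coding gene, LOC105244150, overlaps the upper-coordinate end of Nr4a2.

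Nr4a1 (gene 15370, chr15:101253902-101274795) had scattered short peaks and no base under a peak in more than 4 libraries. In WT the covered length was 208, 596 and 1038 bp after cocaine and 1052, 100 and 516 bp after saline (p = 0.8, exact permutation test), and in cKO it was 811 and 947 bp against 2006, 0 and 274 bp. No difference between the groups was larger than their spread, and per Mb of peaks that in WT turned to -7.43 bp per Mb.

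Arc (gene 11838, chr15:74669081-74672570), a synaptic effector that controls glutamate receptor trafficking, had the largest relative difference among the 9 members with a peak in both WT groups. In WT its covered length was 1204, 2069 and 964 bp after cocaine and 489, 106 and 0 bp after saline. Every cocaine library lay above every saline library, by 1214 ± 367 bp on average (SE, p = 0.1, exact permutation test), and the widest peak did not overlap either (863 to 964 bp against 0 to 489 bp). The separation in covered length ended with q at most 0.01 and with the best 7271 peaks of each list, where the difference was 487 bp in either case (p = 1, exact permutation test) and, with the latter, WT cocaine libraries 1 and 3 had 0 bp. The log2 ratio of the group means was 2.83, above that of 93.4% of the 5446 coding genes with a peak in both WT groups. In cKO the saline libraries already covered 1880, 1295 and 246 bp, and the cocaine libraries, with 2484 and 778 bp, overlapped them. The recurrent place was near the upper-coordinate end of the gene, where 8 libraries shared 8 bases.

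**Figure D2:**
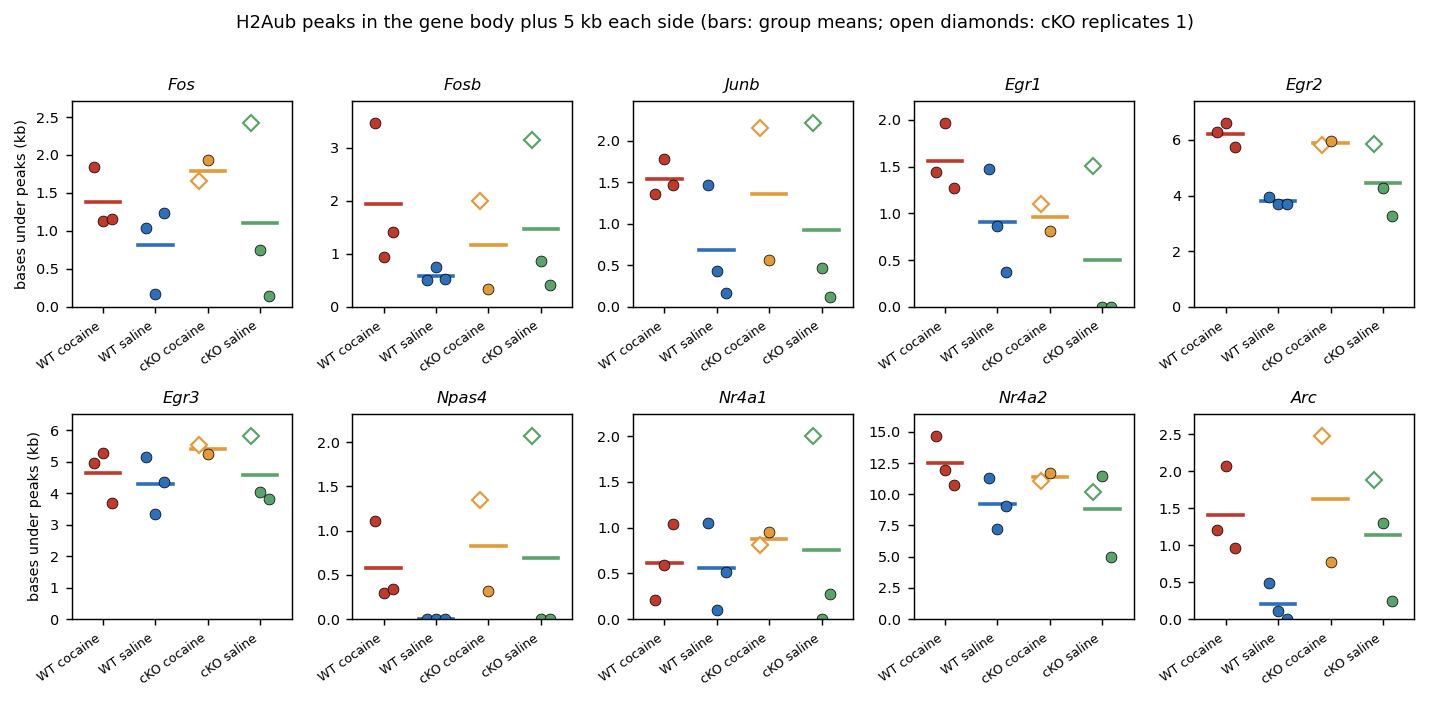
Bases under H2Aub peaks (kb) in the window of each of the 10 members, by group. Each point is a library, bars are group means and open diamonds are the cKO libraries numbered 1. The WT groups do not overlap at Fosb, Egr2, Npas4 and Arc, and no member separates the cKO groups.

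Over the members as a list, a greater length lay under H2Aub peaks after cocaine at all of them in WT, but this was also so for most of the genome. Covered length measures the extent of the peaks and not their height. The median fold enrichment of the members' peaks was 3.23, 3.89 and 3.67 in the WT cocaine libraries and 3.64, 4.35 and 3.69 in the WT saline libraries, which overlapped. The mean covered length was higher after cocaine at 10 of 10 members in WT, against 77.0% of the 8198 coding genes tested and 93.2% of the 2802 coding genes with a peak in at least 9 of the 11 libraries. Every cocaine library lay above every saline library at 4 of 10 members (Fosb, Egr2, Npas4 and Arc), against 15.5% of the genes tested and 29.3% of the genes with a peak in at least 9 libraries, and no member showed the reverse (0.293%). For the widest peak this was so at 5 of 10 (Fos, Egr2, Npas4, Nr4a2 and Arc), against 15.8 and 30.3%. With all peaks, unscaled, the counts are above those of the genome and nearer to those of genes that carry the mark as regularly. They rest on few genes. Per Mb of all peaks of the library they were lower, with 6 of 10 members higher after cocaine (59.1% of genes), 2 of 10 separated upward (Npas4 and Arc, 7.55% of genes) and 1 of 10 separated downward (Egr3, 2.48% of genes). In covered length only Egr2 stayed separated with q at most 0.01 (12.1% of genes) and with the best 7271 peaks of each list (11.7%). No member passed an adjusted p of 0.05, nor did any of the 8198 genes, since the exact permutation test of 3 against 3 libraries cannot go below p = 0.1, which 4 members and 15.8% of genes reached.

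As a median log2 ratio, the difference was also no larger at the members than elsewhere. The median log2 ratio of cocaine to saline in WT was 0.76 over the 9 members with a peak in both groups, 0.89 over the 5446 coding genes with a peak in both and 0.86 over the genes with a peak in at least 9 libraries. Relative to this last value, 3 members lay higher (Fosb with 1.72, Junb with 1.16 and Arc with 2.83) and the other 6 lower, from 0.12 at Egr3 to 0.79 at Egr1. In covered bases, which favour long marked domains, the median difference was 751 bp over the members and 175 bp over all genes tested.

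**Figure D3:**
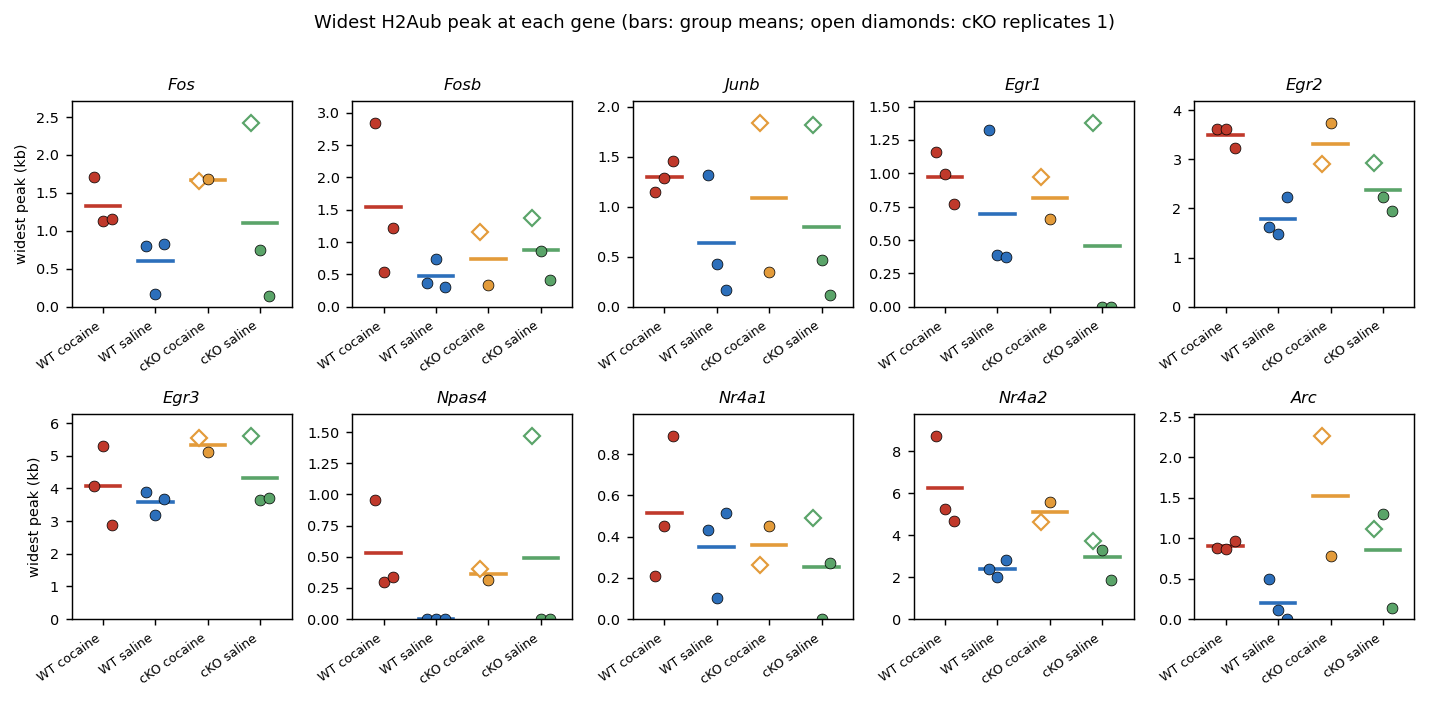
Width of the widest H2Aub peak (kb) at each of the 10 members, by group. Each point is a library, bars are group means and open diamonds are the cKO libraries numbered 1. The WT groups do not overlap at Fos, Egr2, Npas4, Nr4a2 and Arc, and the cKO groups do not overlap at Nr4a2.

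In cKO mice the mean covered length was higher after cocaine at 9 of 10 members, all but Fosb, against 56.5% of 14137 coding genes tested and 86.4% of the genes with a peak in at least 9 libraries. No member had every cocaine library above every saline library, against 3.90% of genes and 12.2% of those with a peak in at least 9 libraries. For the widest peak Nr4a2 alone did, 1 of 10 against 5.83 and 17.4%. The adjusted p was 1 for each member, and the unadjusted p ran from 0.3 at Egr2 to 1 at Nr4a1 (exact permutation tests, for which 2 against 3 libraries can reach 0.1 at best, as 2.19% of genes did). These counts depended on the saline library numbered 1, which had the highest covered length of the cKO saline group at 9 of the 10 members, Nr4a2 being the exception. Without the libraries numbered 1 of both groups, the remaining cocaine library lay above both remaining saline libraries at 8 of 10 members in covered length, and at 7 of 10 in the widest peak, against 67.2 and 62.7% of the 5738 coding genes with a peak in any of these 3 libraries and 72.6 and 64.0% of the genes with a peak in at least 9 of the 11. The member shares are near these background shares, and with 1 cocaine library there was no test. Per Mb of all peaks of the library, with all cKO libraries, 5 of 10 members were higher after cocaine (55.7% of genes), none was separated upward and Fosb was separated downward (0.375% of genes).

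The difference between the genotypes in their response was tested at each member by permuting the treatment within genotype over 200 arrangements. It ran from -1662 bp at Fosb (p = 0.285, exact permutation test), where the response was lower in cKO than in WT, to 462 bp at Egr3 (p = 0.665, exact permutation test), and was -978 bp at Egr2 (p = 0.53, exact permutation test). Without the cKO libraries numbered 1 these values were -1657, 945 and -215 bp. They moved with single libraries. At Fosb the difference was -826 bp without the first cKO saline library, -831 bp without the second cKO cocaine library, -903 bp without the first WT cocaine library and -2493 bp without the first cKO cocaine library. At Egr2 it was -285 bp without the first and -1571 bp without the third cKO saline library, and at Egr3 it ran from -21.3 bp without the third WT cocaine library to 1095 bp without the first cKO saline library. The adjusted p was 1 for each of the 10 members. Over all genes 0.318% had an unadjusted p of at most 0.05, and none passed after adjustment. A smaller response of the immediate early genes in cKO was therefore not shown by these libraries, and neither was an equal one.

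Summed over the 10 members, peaks covered 32.4 ± 4.39 kb in WT cocaine (SD, n = 3) and 21.0 ± 4.94 kb in WT saline libraries (SD, n = 3), a difference of 11346 bp. In cKO the sums were 31.3 ± 3.83 kb after cocaine (SD, n = 2) and 24.5 ± 12.0 kb after saline (SD, n = 3), a difference of 6809 bp, so that the response in cKO minus that in WT was -4538 bp, or -934 bp without the cKO libraries numbered 1. With 1 library left out at a time, the cKO difference ran from 1172 to 13120 bp. The difference between genotypes then ran from -10174 to 1773 bp, and with q at most 0.01 it was 2512 bp. No test was made on a sum over chosen genes. These sums moved with the length of the lists. The 3 lists that covered the least of the genome (4.24, 5.55 and 7.67 Mb, all after saline) had sums of 13.2, 16.7 and 23.1 kb, and the 3 that covered the most had 36.6, 34.0 and 37.1 kb. Per Mb of all peaks of its library the members held 2327 ± 310 bp after cocaine and 2585 ± 362 bp after saline in WT (SD, n = 3 in each), which turns the direction of the summed difference, to -258 bp per Mb in WT and -399 bp per Mb in cKO. This scale falls with the length of the list too, with 3115, 3003 and 3015 bp per Mb in the 3 lists that covered the least and 2122, 1601 and 1346 bp per Mb in the 3 that covered the most. With the best 7271 peaks of each list the summed difference was 8165 bp in WT and 1330 bp in cKO, and the response in cKO minus that in WT was -6835 bp. In WT the difference at single genes was then 2688 bp at Egr2, 487 bp at Arc, -223 bp at Fos and 0 bp at Npas4.

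The third WT cocaine list and the first WT saline list were similar in extent, at 10.4 and 11.1 Mb, in 15874 and 23748 peaks with median widths of 338 and 242 bp, and their sums over the members were 27.8 and 26.4 kb. Of the members, 5 were covered more and 5 less in this cocaine library than in this saline library, against 41.4% of the 6477 coding genes with a peak in either list covered more and 47.8% of the genes with a peak in at least 9 of the 11 libraries. The 5 that were covered more include Egr2, Fosb, Arc and Npas4, at which any WT cocaine library lies above any WT saline library, and Fos (1158 against 1036 bp). The 5 that were covered less were Junb, Egr1, Egr3, Nr4a1 and Nr4a2. With 1 library on each side this comparison has no replicate check.

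**Figure D4:**
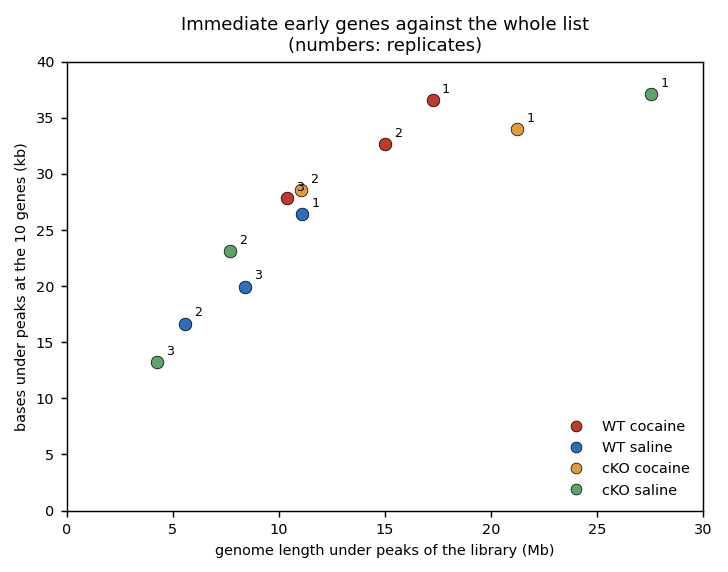
Bases under H2Aub peaks summed over the 10 members (kb, vertical axis) against the genome length under all peaks of the same library (Mb, horizontal axis), with points coloured by group and numbered by replicate. The sums range from 13.2 to 37.1 kb and are lowest in the libraries that cover the least of the genome.

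The other genes of the same programme were taken from lists of 20 further immediate early transcription factors, 24 further effectors and 13 upstream factors that act on immediate early promoters, chosen with earlier results known. A peak in at least 9 libraries was found at 10 of the 20 transcription factors (Fosl1, Fosl2, Egr4, Nr4a3, Atf3, Klf2, Klf4, Klf10, Maff and Nfil3), at 8 of the 24 effectors (Bdnf, Dusp5, Gadd45b, Gadd45g, Nptx2, Nrn1, Ccn1 and Vgf) and at 0 of the 13 upstream factors, beside 12.8% of all coding genes. A peak in at least 1 library was found at 19, 20 and 10 of them, beside 66.1% of all coding genes, and differences between the lists were not tested. In WT the mean covered length was higher after cocaine at 16 of 16 transcription factors tested, 12 of 16 effectors and 5 of 5 upstream factors, beside 77.0% of genes, and every cocaine library lay above every saline library at 3, 7 and 0 of them, beside 15.5% of genes. Among genes with a peak in at least 9 libraries, as many of the listed genes were, these shares were 93.2 and 29.3%.

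Among the effectors, Nrn1, which encodes the neurite growth factor neuritin, covered 8288 ± 1314 bp after cocaine and 4993 ± 2431 bp after saline in WT (SD, n = 3 in each). Vgf, the gene of a secreted neuropeptide precursor, covered 4712 ± 1386 and 2151 ± 1167 bp, and Dusp5, a phosphatase gene of the ERK pathway, 2291 ± 353 and 846 ± 525 bp (SD, n = 3 in each). None of these WT groups overlapped in covered bp, which was not scaled to the length of the lists. Zfp36, whose product speeds the decay of short-lived messenger RNAs, was the only listed gene that shared the Npas4 pattern in WT, with 478 ± 159 bp (SD, n = 3) after cocaine and no peak in the 3 saline libraries.

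Among the transcription factors, Atf3 covered 6240 ± 2146 bp after cocaine and 3791 ± 592 bp after saline in WT (SD, n = 3 in each), and Maff 2080 ± 525 and 831 ± 534 bp. Both also separated the cKO groups, as did Fosl1 and Dusp5, with 5234 and 5279 bp after cocaine against 4166, 5011 and 2465 bp after saline at Atf3. In cKO 16 of 19 transcription factors, 15 of 20 effectors and 7 of 10 upstream factors tested were higher after cocaine, beside 56.5% of genes, with 3, 1 and 0 separated, beside 3.90% of genes. Among genes with a peak in at least 9 libraries these shares were 86.4 and 12.2%. Without the libraries numbered 1, 11 of 13, 8 of 11 and 3 of 3 were higher, beside 77.6% of genes. The remaining cocaine library then lay above both saline libraries at 8, 7 and 3 of them, beside 67.2% of genes, without a test. No listed gene can pass an adjusted p of 0.05 in this design. Bdnf, a further activity-regulated gene, showed no such difference, with 1325 ± 294 bp after cocaine and 1358 ± 1188 bp after saline in WT (SD, n = 3 in each). The lowest WT cocaine and highest WT saline values were 4596 and 4472 bp at Atf3 and 1772 and 1413 bp at Maff. The listed genes were not compared per Mb of all peaks of the library or with equal numbers of peaks. The part of list length in their differences was therefore not tested.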

How the data were processed

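H2Aub was profiled by ChIPmentation in 11 libraries. The authors trimmed reads with Cutadapt, mapped them to mm10 (Bowtie2, 2.3.4.1) and, for each library, ran MACS2 (2.1.1.20160309.3) for broad peaks against total input. The 4 input libraries were not analysed here. The deposited lists gave for every peak a whole-number score, a fold enrichment (a linear ratio over input), and the −log10 p and −log10 q. The deposited score was not used. No read counts came with the peaks, so the depth of each library is unknown beyond the minimum that the study reports. Lists were not scaled, and no interval for counting error could be given. The highest q was 0.0997, and all peaks were used.

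Gene positions came from a table of GRCm38.p6 (the coordinates of mm10). It holds no strand, so gene ends are called lower- and higher-coordinate, and no sequence is shown. A planned search of promoter motifs was not run. Covered bp in the window was compared between groups by two-sided exact permutation tests over libraries, with Benjamini-Hochberg adjustment over every coding gene with a peak in the libraries compared. Libraries are separate pooled samples. The text names all members and, of the further lists, the genes with a peak in at least 9 libraries or in all cocaine and no saline libraries of a genotype. The members and lists were chosen with earlier results of these data known. The code was tested on simulated data. Alternatives covered q, window, overlap, list length, scale, replicate block and left-out libraries. Python 3.11.15, numpy 2.4.6 and pandas 2.3.3 were used.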

Additional observations from a re-analysis of the deposited data

How the results depend on the processing

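Of 524 values over 23 alternatives, 460 were called the same. Summed differences had to keep their direction and stay within 1 pooled SD, and counts within 1.5 times. Single genes had to keep their direction and their side of an adjusted p of 0.05. The adjusted p (lowest 0.425 in WT, 1 in cKO and 1 between genotypes) says nothing of stability within a genotype, where the design cannot pass 0.05. The cause was not tested for the changes that follow, unless fewer libraries or peaks make it plain. Per Mb of all peaks of the library, the summed differences turned to -258 bp in WT and -399 bp in cKO, members higher after cocaine fell to 6 in WT and 5 in cKO, 2 members (Npas4 and Arc) separated the WT groups upward and 1 (Egr3) downward, and 1 (Fosb) separated the cKO groups downward. The same scale turned WT Egr2 (-34.5), Egr3 (-196), Nr4a1 (-7.43) and Nr4a2 (-236), and cKO Egr2 (-105), Egr3 (-179), Nr4a2 (-220) and Arc (-4.69 bp per Mb). With the best 7271 peaks of each list, 4 members were higher in cKO (56.0% of genes), 1 (Egr2) separated the WT groups in covered bp (11.7% of genes), 2 in the widest peak and 0 the cKO groups in the widest peak, and WT Fos (-223 bp) and cKO Junb (-212), Nr4a1 (-91.3), Nr4a2 (-139) and Arc (-125) turned. With q at most 0.01, 1 member (Egr2) separated the WT groups (12.1% of genes), 2 (Egr1 and Nr4a2) the cKO groups (1.85%), 2 in the widest peak in either genotype, the difference between genotypes became 2512 bp, and WT Junb (-255), cKO Npas4 (-153) and cKO Nr4a1 (-424) turned. With q at most 0.05, Nr4a1 turned in WT (-118) and cKO (-111 bp). With the gene body alone, WT Nr4a1 (-25.7) and the genotype difference at Egr3 (-26.7 bp) turned, and 0 members separated the cKO groups in the widest peak.

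Leaving out 1 library at a time gave summed differences of 9177 to 14038 bp in WT and 1172 to 13120 bp in cKO, and a difference between genotypes of -10174 to 1773 bp, positive only without the cKO saline library numbered 1. Members higher after cocaine then numbered 8 to 10 in WT and 6 to 10 in cKO. Separated members numbered 4 to 7 in WT and 0 to 7 in cKO in covered bp, and 5 to 7 and 1 to 6 in the widest peak, beside 16.7 to 31.7%, 4.00 to 33.1%, 17.6 to 30.1% and 6.06 to 36.9% of genes, in the same order. Differences that changed direction ranged from -96.7 to 851 bp at Egr3 and -170 to 306 bp at Nr4a1 in WT, from -1141 to 526 bp at Fosb, -364 to 1226 bp at Junb, -377 to 829 bp at Npas4, -261 to 742 bp at Nr4a1 and -362 to 1344 bp at Arc in cKO, and from -21.3 to 1095 bp between genotypes at Egr3. Without both cKO libraries numbered 1, the members separated in cKO numbered 8 in covered bp and 7 in the widest peak.

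The labels number the replicates, but same-numbered WT libraries did not deviate together (correlations over 14472 genes of 0.0703, -0.00496 and 0.0306), and the cKO groups share only 2 numbers (0.429 and 0.353). The deviations of the 2 cKO cocaine libraries mirror each other, so these 2 values are not separate signs of pairing. The differently numbered pair of cKO cocaine 2 and cKO saline 3 had 0.225. With the replicate block, Npas4 (-209 bp) and Nr4a1 (-124 bp) turned in cKO, the summed difference stayed at 11346 bp in WT and was 1172 bp in cKO, and no p fell below 0.25. Without Nr4a2, an alternative chosen after seeing the data, the summed results kept their direction. The depth of each library is unknown, so a missing peak sets no limit on the mark.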
